A study of Mus musculus with 13 samples.

Results

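Monocytes and macrophages that had entered the spinal cord were compared between the chronic phase and the peak of experimental autoimmune encephalomyelitis (EAE), a mouse model of immune-driven demyelination. The members were the cells that the deposited cell table names monocyte or macrophage, places in its cluster 6 and gives the sorting label of infiltrating cells. They numbered 3050 of 22148 cells in the series and of 5905 infiltrating cells, with 1011 in chronic and 2039 in peak disease. The table named 1643 of them macrophages and 1407 monocytes, and these names followed 1 gene: every member with at least 2 molecules of Ccr2, a chemokine receptor, was named a monocyte, and every member with 0 or 1 a macrophage. Below, the class names stand for that division. Another 113 cells named monocytes in cluster 8 and 37 macrophages outside cluster 6 were not used.

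All mice were of the Cx3cr1YFPCreERT2:R26tdTomato line, in which a tamoxifen-inducible Cre made from the Cx3cr1 locus can switch on the red protein tdTomato. Resident and infiltrating cells were sorted from spinal cords taken in chronic or peak EAE, and resident cells also from healthy animals. The cords were broken up mechanically, myelin was removed on Percoll and dead cells were excluded with 7-AAD before droplet sequencing. The infiltrating groups were chronic EAE (3 libraries, called a, b and c) and peak EAE (2 libraries, a and b), which the labels call biological replicates, and p-values here measure the spread between these libraries. Cx3cr1 is not a gene of microglia alone, since monocytes and macrophages make it too, so the mark separates cells by their history and not by their type. The age of the mice, the time between tamoxifen and disease and the number of mice per library are not given in the sources used here.

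In EAE, Ly6C-high CCR2+ monocytes enter the cord from the blood and turn into macrophages there, a change in which the monocyte genes Ly6c2, Ccr2 and Plac8 are lost and genes of complement, lipid handling and lysosomes are gained. Interferon-gamma from T cells drives a further programme in these cells, with guanylate-binding proteins and immunity-related GTPases among its strongest targets. Macrophages that take up myelin fill with lipid and lysosomes and express genes such as Gpnmb, Cd63 and Fabp4.

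The summed members of a library held 5039012, 3057154 and 1975541 unique molecular identifiers (UMIs, one per captured RNA molecule) in chronic libraries a, b and c, and 19987346 and 4166945 in peak libraries a and b. Median UMIs per cell were 9327, 10191 and 6783 in chronic disease and 11414 and 11161.5 at the peak. No sequencing pool held both stages: chronic a and b were in one, chronic c in another, and each peak library in a pool of its own. The batch date of the cell table divided the 5 libraries in the same way. Pool, batch date and stage thus cannot be told apart, and no comparison of the stages within a pool or date exists. The members made up 79.2%, 12.2% and 43.2% of the cells of chronic libraries a, b and c, and 86.6% and 81.3% of peak libraries a and b. Chronic library b stood apart, since 81.2% of the cells in this library labelled infiltrating were named microglia, against 1.80% and 13.4% in chronic a and c and 0.924% and 0.462% in peak a and b. Of all member barcodes, 1 occurred in 2 of these libraries.

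The names were checked against marker genes. Monocytes and macrophages together held 5488, 2228 and 479.9 CPM (counts scaled to a common library total) from 10 monocyte markers in chronic a, b and c, and 12967 and 7886 CPM in peak a and b. The 10 macrophage markers summed to 19882, 36772 and 86089 CPM in chronic libraries a, b and c, and to 20992 and 40560 CPM in peak libraries a and b. Ly6g of neutrophils and Cd163 and Lyve1 of border-associated macrophages were at 0 in every library, but other members of these lists were not. The neutrophil list summed to 203, 200.5 and 60.2 CPM in chronic a, b and c, and to 411 and 211 CPM in peak a and b. S100a8 and Mmp8 were among its members present in every library. The border-associated list, with F13a1, Stab1 and Pf4 present throughout, summed to 264, 186 and 258 CPM in chronic and 341 and 431 CPM in peak libraries. T cell markers summed to 1.31 to 18.5 CPM in chronic and 13.9 to 14.5 CPM in peak libraries. Microglial markers were low but not absent: all 8 tested had positive fold changes, the 10 listed summed to 729.9, 1365 and 2185 CPM in chronic and to 629.9 and 656.6 CPM in peak libraries, and 4 of the 8 did not overlap between the stages. The defining microglial genes Siglech and Sall1 reached at most 2.62 CPM in any member library, and Sall1 was at 0 in all chronic ones. Gpr34, Tmem119 and Cx3cr1 were highest in chronic c. Gpr34 had 3.18, 18.6 and 97.2 CPM in chronic a, b and c, against 1.40 and 1.68 CPM in peak a and b. Tmem119 had 8.93, 16.7 and 65.8 against 13.3 and 18.7 CPM, and Cx3cr1 had 13.9, 93.2 and 423 against 28.7 and 159 CPM. P2ry12 stood at 11.5, 22.6 and 17.2 CPM in chronic members and 19.7 and 10.8 CPM in peak members, while microglia of the chronic libraries a, b and c held 651, 806 and 706 CPM. Cells with a UMI of one of 5 microglial genes were 27.0%, 33.8% and 68.6% of members in chronic libraries a, b and c, and 28.7% and 25.3% in peak libraries a and b.

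Bhlhe41, which encodes a basic helix-loop-helix repressor of the circadian clock, rose in chronic disease and was the only 1 of 9684 tested genes to do so or to fall when both classes were summed. Its level was 139, 229 and 154 CPM in libraries a, b and c of chronic disease, against 9.69 and 15.8 CPM in peak libraries a and b, with CPM of single genes scaled by edgeR's TMM factors. Every chronic library was far above both peak libraries. The means were 174 ± 48.3 CPM (SD, n = 3) in chronic and 12.7 ± 4.31 CPM (SD, n = 2) in peak disease. The log2 fold change of Bhlhe41 was 3.79 ± 0.44 (SE), with an adjusted p of 0.0467 by edgeR's quasi-likelihood test after Benjamini-Hochberg adjustment over all genes. The gene lies at chr6:145858243-145865558 on the minus strand of GRCm38. Its promoter is shown because the gene was the only one called. In the window of 250 bases before and 50 after its RefSeq start, at chr6:145865371-145865670 (GRCm38.p6, minus strand), capitals mark the only CACGTG, the E-box that this protein family binds.
Bhlhe41: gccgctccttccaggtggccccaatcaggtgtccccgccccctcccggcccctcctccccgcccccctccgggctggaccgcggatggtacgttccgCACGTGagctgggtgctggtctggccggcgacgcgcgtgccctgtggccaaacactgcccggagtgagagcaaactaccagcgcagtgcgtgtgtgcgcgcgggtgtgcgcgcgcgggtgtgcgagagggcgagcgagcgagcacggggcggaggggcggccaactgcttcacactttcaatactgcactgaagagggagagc
The motif CACGTG, which reads the same on both strands, occurred in 12.6% of the promoters of the 7806 genes both tested and found in the promoter table.

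The share of cells with a Bhlhe41 UMI gave the same order. With every cell thinned to 3000 UMIs, 20.3%, 36.7% and 32.9% of cells in chronic libraries a, b and c held one, against 2.18% and 4.07% in peak libraries a and b. The Wilson 95% intervals of Bhlhe41, which cover counting error only, began at 17.0% or higher in chronic libraries and ended at 6.71% or lower in peak ones. Thinning left out 13, 6 and 20 cells of chronic libraries a, b and c and 36 and 8 of peak libraries a and b, which had fewer UMIs. Without it the shares were 36.1%, 61.0% and 51.5% in chronic and 6.40% and 13.9% in peak libraries. T cells of the same gate had a Bhlhe41 UMI in 0 of 82 thinned cells in chronic disease, which allows up to 3.66%, and in 0 of 183 at the peak, which allows up to 1.64%. Their median depths were 3138.5 and 7188.5 UMIs.

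The call of Bhlhe41 was lost under 5 of 17 settings. Its adjusted p by edgeR was 0.298 without peak library a, 0.517 without peak library b, 0.0928 with scaling by library size alone, 0.0739 with a stricter filter on low counts and 0.0758 with the clusters other than 6 included, while its log2 fold change stayed between 3.40 and 4.15 over all settings. Without chronic library b, the one with most microglia, 4 genes were called and Bhlhe41 had a log2 fold change of 3.53 and an adjusted p of 0.0246 by edgeR.

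With 1 gene called (0.0103% of those tested), the other genes are given by their values. An unadjusted p under 0.05 was reached by 958 genes (9.89%), 485 of them higher and 473 lower in chronic disease. Without overlap between the 3 chronic and the 2 peak libraries were 2454 genes (25.3%), of which 1285 were higher (13.3%) and 1169 lower (12.1%). The log2 fold changes of all genes had a median of -0.01, with 5th and 95th percentiles of -0.95 and 1.03. By DESeq2's Wald test on the same sums, 103 genes (1.06%) had an adjusted p under 0.05, 76 higher and 27 lower. All 20 genes that the naming rule picks were among them, but the rule picked them by p on these same sums, so this is no separate support. By edgeR, all 20 were called with no filter on low counts and 13 without chronic library a. In a fit shared with microglia 3 were called, without chronic library b 2, with RLE scaling 1, and with a stricter filter or scaling by library size 0.

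By the naming rule, which leaves out ribosomal and predicted genes and takes those with a mean log2 CPM of 5 or more, a log2 fold change of at least 1 in size and no overlap in order of p, the first on the higher side after Bhlhe41 were Cd63, Timp2 and Fabp4, none of them called. Cd63, a tetraspanin of late endosomes and lysosomes, stood at 1385, 1488 and 1382 CPM in chronic libraries a, b and c, and at 258 and 188 CPM in peak libraries a and b. The chronic libraries lay close together and clear of both peak libraries (log2 fold change 2.67 ± 0.42 SE, adjusted p = 0.123 by edgeR). Timp2, an inhibitor of matrix metalloproteinases, had 325, 560.1 and 407 CPM in chronic and 62.2 and 91.8 CPM in peak libraries (log2 2.49 ± 0.43 SE, adjusted p = 0.152 by edgeR). Fabp4, a fatty acid carrier of macrophages and fat cells, had 123, 151 and 64.4 CPM in chronic and 17.9 and 4.63 CPM in peak libraries (log2 3.27 ± 0.60 SE, adjusted p = 0.16 by edgeR). For Timp2 and Fabp4 too, every chronic library was above both peak ones. Igf1, a growth factor made by tissue macrophages and microglia, was low in level, at 11.3, 43.8 and 97.4 CPM in chronic and 0.454 and 2.95 CPM in peak libraries (log2 5.23 ± 1.04 SE). Smaller differences without overlap were those of Vkorc1 of the vitamin K cycle (60.8, 90.4 and 82.2 CPM in chronic, 26.2 and 21.7 CPM in peak libraries), of the DNA repair enzyme gene Apex1 (61.4, 73.2 and 47.6 against 24.4 and 16.2 CPM), and of Vegfb, a vascular growth factor (54.0, 97.0 and 64.4 against 25.3 and 22.5 CPM). Comtd1 and Cox20, which assists assembly of cytochrome oxidase, completed the higher side, with log2 values of 1.68 and 1.41.

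Fcrls, a gene found in microglia and in some other macrophages, was also on this side, at 77.8, 41.7 and 274 CPM in chronic libraries a, b and c and at 5.5 and 11.4 CPM in peak libraries a and b. Chronic library c was the highest by far. It also had the most cells with a microglial UMI, but Fcrls is itself one of the 5 genes of that count. Microglia of chronic libraries a, b and c held 391, 877 and 681 CPM of Fcrls by library size. Where the Fcrls of the members came from was not tested. With all cells that held a UMI of the 5 microglial genes left out, Bhlhe41 had a log2 fold change of 3.65 (adjusted p = 0.0191 by edgeR). That filter removes every Fcrls UMI, so Fcrls has no value to set beside this one. Other microglial genes, such as Gpr34 and Cx3cr1, were not part of the filter, and a microglial source was not tested for either gene.

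The first on the lower side by that rule were Gpr141, Fgl2 and Ccr2, none of them called. Gpr141, an orphan G protein-coupled receptor, stood at 48.5, 36.4 and 40.8 CPM in chronic libraries a, b and c, and at 208 and 193 CPM in peak libraries a and b. Its means were 41.9 ± 6.11 CPM (SD, n = 3) in chronic and 200.3 ± 10.5 CPM (SD, n = 2) in peak disease, and its log2 fold change was -2.25 ± 0.31 (SE; adjusted p = 0.115 by edgeR). After thinning, 12.7%, 10.3% and 10.96% of chronic and 40.7% and 37.5% of peak cells held a Gpr141 UMI, while T cells held it in 0 of 82 cells in chronic disease (up to 3.66%) and 0 of 183 at the peak (up to 1.64%). Fgl2, a fibrinogen-like protein with immune-regulatory roles, had 81.2, 39.9 and 54.4 CPM in chronic and 179.7 and 231 CPM in peak libraries (log2 -1.81). Ccr2, the receptor that brings monocytes out of the marrow and into tissue, had 130.2, 97.4 and 151 CPM in chronic and 381 and 390.2 CPM in peak libraries (log2 -1.61 ± 0.35 SE, adjusted p = 0.245 by edgeR). No chronic library reached the lower peak library for Gpr141, Fgl2 or Ccr2. Casp4, the inflammatory caspase (caspase-11) that senses bacterial lipopolysaccharide in the cytosol, had 29.5, 14.01 and 17.8 CPM in chronic and 56.1 and 71.2 CPM in peak libraries, and Neurl3, a ubiquitin ligase, had 32.1, 36.1 and 49.7 against 91.2 and 110.1 CPM. Man2a1, a mannosidase of the Golgi, was also on this side (34.2, 27.3 and 23.04 CPM in chronic, 56.7 and 99.4 CPM in peak libraries). Iigp1, which the rule picks here too, is given with the interferon-gamma genes below. H2-Q6, H2-Q7 and Gbp3 belong to families of near-identical genes, between which reads can be split, so their single values are uncertain: H2-Q7 had 121, 122 and 79.1 CPM in chronic and 257 and 463 CPM in peak libraries, and H2-Q6 had a log2 value of -1.49. C4b of the complement cascade, a gene of low level, stood at 13.5, 11.2 and 5.24 CPM in chronic and at 55.3 and 68.4 CPM in peak libraries (log2 -2.58 ± 0.39 SE, adjusted p = 0.115 by edgeR). Reads of C4b can be shared with its copy C4a.

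**Figure D1:**
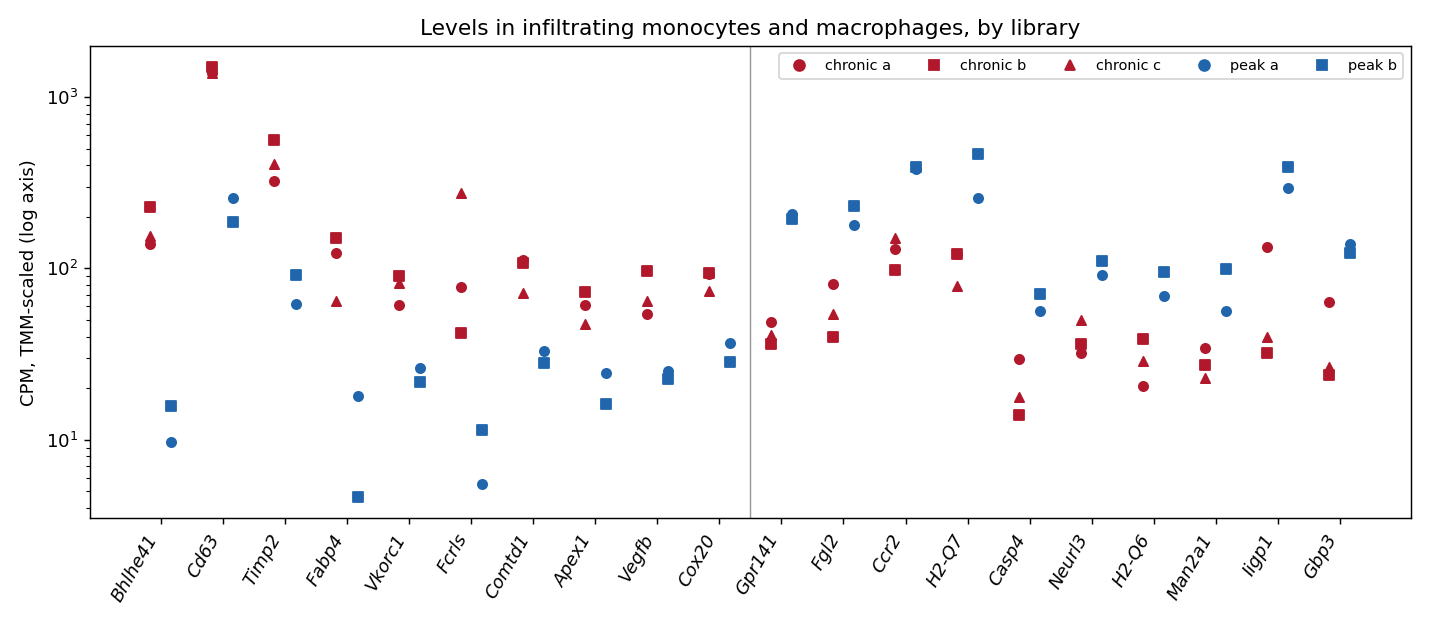
CPM on a log axis (TMM-scaled) of the 10 higher and 10 lower genes picked by the naming rule, with chronic libraries in red left of peak libraries in blue and 1 point per library. The stages do not overlap for any of them, which the rule required; Bhlhe41 had 139 to 229 CPM in chronic and 9.69 to 15.8 CPM in peak libraries.

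The share of macrophages, members with 0 or 1 Ccr2 UMI, was higher in every chronic library. They made up 72.0%, 81.2% and 82.0% of the members in chronic libraries a, b and c, and 40.6% and 51.1% in peak libraries a and b, so that all chronic libraries were above both peak ones. The means were 78.4% ± 5.58 (SD, n = 3) in chronic and 45.9% ± 7.45 (SD, n = 2) in peak disease, a difference of 32.5 percentage points with a two-sided exact permutation p of 0.1, the smallest that 10 arrangements of the libraries allow. Since the classes divide at 2 Ccr2 UMIs, the share is a reading of Ccr2 and moves with the depth of a cell, and median depth was lower in chronic libraries. With every cell thinned to 3000 UMIs, at least 2 Ccr2 UMIs were left in 10.8%, 8.19% and 10.5% of chronic members of libraries a, b and c, and in 31.9% and 33.1% of peak members of libraries a and b. At equal depth, then, all chronic libraries still lay below both peak ones. T cells of the gate, which can make Ccr2 too, held at least 1 Ccr2 UMI in 19.5% of thinned cells in chronic and 31.7% in peak disease, and members in 17.4% to 27.3% in chronic and 45.9% to 51.4% in peak libraries. A shift of cells across the boundary and a change in the cells present cannot be told apart. In the sums, fewer cells of a type and less RNA of that type per cell likewise cannot be told apart.

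All 10 monocyte markers had negative fold changes, with a median log2 of -1.74 (-2.79 without chronic library a), and 7 of them were lower in every chronic library than in every peak library, where 12.1% of all genes tested were; none passed the edgeR test. Ly6c2, the surface protein of inflammatory monocytes, had 404, 324 and 28.8 CPM in chronic libraries a, b and c, and 865 and 765 CPM in peak libraries a and b. Plac8, a gene of freshly recruited monocytes, had 1215, 78.1 and 48.2 CPM in chronic and 2677 and 1388 CPM in peak libraries. Chil3, a chitinase-like protein of monocytes and neutrophils, had 1770.4, 1155 and 28.3 CPM in chronic and 5369.9 and 1911 CPM in peak libraries. In these 3 genes chronic library a was the highest and c the lowest of the chronic libraries. Within each class the median of the list was smaller in size, at -1.24 in macrophages (3 of 10 lower without overlap, where 10.9% of all genes were) and -1.38 in monocytes (5 of 10, where 12% were). Ccr2 is one of the 10 and is included in these medians and counts, although the classes were divided by it. That division limits how far Ccr2 can differ within a class, so its own level there is not compared.

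Macrophage markers had a median log2 of 0.73 (0.13 without chronic library c), and 5 of 10 were higher without overlap, where 13.3% of all genes were. C1qc, a chain of the complement component C1q, had 2627, 3732 and 4424 CPM in chronic libraries a, b and c, and 1451 and 1429.6 CPM in peak libraries a and b. Ms4a7, a membrane protein of monocyte-derived and border macrophages, had 685, 1129 and 1494 CPM in chronic and 303 and 318 CPM in peak libraries (log2 1.83 ± 0.45 SE, adjusted p = 0.245 by edgeR). Both genes were above the peak range in every chronic library. Apoe, the lipid carrier of macrophages and microglia, overlapped, with 9092, 24409 and 65903 CPM in chronic and 12681 and 26972 CPM in peak libraries. Trem2, the lipid-sensing receptor of microglia and macrophages, overlapped as well (458, 828 and 1514 CPM in chronic, 597 and 657 CPM in peak libraries).

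Genes induced by interferon-gamma had lower levels in chronic disease, most of all in libraries b and c. All 18 tested members of a list of GTPases and regulators of this response had negative fold changes, with a median log2 of -1.39, and 10 were lower without overlap against 12.1% of all genes. By edgeR none passed. By DESeq2 Iigp1 and Gbp3 fell, 2 of 18, where 0.279% of all genes were lower by that test. The list summed to 3554, 1248 and 742 CPM in chronic libraries a, b and c, and to 4108 and 4259.96 CPM in peak libraries a and b, so chronic library a lay just under the peak libraries and b and c far below. Without chronic library a, 13 of the 18 fell by edgeR, where 1.34% of all genes did, and the median became -2.35. Iigp1, an immunity-related GTPase that attacks the vacuoles of intracellular parasites, had 132, 31.9 and 39.8 CPM in chronic and 293 and 389 CPM in peak libraries (log2 -2.31 ± 0.56 SE). Gbp3, a guanylate-binding protein, had 63.9, 23.8 and 26.7 CPM in chronic and 138 and 123 CPM in peak libraries (log2 -1.76 ± 0.43 SE). These values carry the caution on near-identical genes given above. Gbp2 had 428, 140.5 and 40.3 CPM in chronic and 831 and 447 CPM in peak libraries. Irf1, a transcription factor induced by interferon-gamma, overlapped (log2 -0.49), with 431, 206 and 92.1 CPM in chronic and 393 and 290.2 CPM in peak libraries. The list medians were -1.29 in macrophages and -1.27 in monocytes, each with 8 of 17 members lower without overlap, where 10.9% of all genes were in macrophages and 12% in monocytes. Cxcl9, a chemokine induced by interferon-gamma that attracts T cells, had 419.5, 208 and 519 CPM in chronic and 632 and 1025 CPM in peak libraries, while the related Cxcl10 overlapped (1158, 100.2 and 202 against 687 and 789 CPM).

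Promoters of this list are shown because the fold changes of its members all had one sign. The windows run from 250 bases before to 50 after the RefSeq start (GRCm38.p6) of Gbp2 (chr3:142620413-142620712, plus strand), Gbp3 (first of 2 starts, chr3:142559794-142560093, plus strand) and Irf1 (first of 2 starts, chr11:53769764-53770063, plus strand). Capitals mark the interferon-stimulated response element, searched as GAAA, any 2 bases and GAAA, in Gbp2 and in Gbp3, where 2 matches overlap, all of them on the minus strand. In Irf1 they mark the gamma-activated site, an element of promoters that respond to interferon-gamma, searched as TTC, any 3 bases and GAA.
Gbp2: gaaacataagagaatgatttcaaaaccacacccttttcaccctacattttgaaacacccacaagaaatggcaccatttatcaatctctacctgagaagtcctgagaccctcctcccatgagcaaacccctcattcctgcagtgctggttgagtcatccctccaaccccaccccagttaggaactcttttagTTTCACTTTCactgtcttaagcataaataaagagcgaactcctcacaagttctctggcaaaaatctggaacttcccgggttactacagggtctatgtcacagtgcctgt
Gbp3: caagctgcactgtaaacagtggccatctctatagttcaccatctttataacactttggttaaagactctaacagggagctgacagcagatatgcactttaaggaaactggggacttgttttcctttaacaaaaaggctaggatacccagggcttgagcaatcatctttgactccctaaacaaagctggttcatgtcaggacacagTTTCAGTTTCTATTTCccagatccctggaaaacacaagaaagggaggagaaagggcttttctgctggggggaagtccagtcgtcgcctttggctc
Irf1: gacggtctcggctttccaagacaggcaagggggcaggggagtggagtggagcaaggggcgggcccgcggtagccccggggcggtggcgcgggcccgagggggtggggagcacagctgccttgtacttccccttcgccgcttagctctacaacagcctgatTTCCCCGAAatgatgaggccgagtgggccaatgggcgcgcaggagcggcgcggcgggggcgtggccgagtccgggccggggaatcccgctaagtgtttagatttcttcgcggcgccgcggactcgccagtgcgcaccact
Both motifs were searched on both strands, counting overlapping matches, and any start of a gene could hold them. The response element was in the promoters of 10 of the 13 list genes with an entry in the table (76.9%) and of 4.20% of the 7806 genes tested. The gamma-activated site was in 8 of the 13 (61.5%) and in 8.54% of the tested genes. Of the 20 matched genes of the type I interferon list below, 11 had the response element and 5 the gamma-activated site. In the MHC class I list these were 4 and 2 of 16 matched genes. Among the 18 matched genes of the lipid-associated list below, 1 had the response element and 0 had the gamma-activated site. The motifs were thus not particular to the interferon-gamma list. A match describes the letters of the window and is not a measured binding site.

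Genes of the type I interferon response had a median log2 of -0.54 over 26 tested members, of which 2 were lower without overlap, fewer than the 12.1% of all genes. The median was -0.21 without chronic library b, -0.19 without chronic c or peak a and -1.71 without chronic a. Their sum was 8806, 2255 and 2729 CPM in chronic libraries a, b and c, and 7633 and 5319 CPM in peak libraries a and b, with chronic library a the highest of all 5. Isg15, a ubiquitin-like protein of this response, had 1714, 137 and 77.0 CPM in chronic and 497 and 213 CPM in peak libraries, with a log2 of 0.86. Without chronic library a, 10 of the 26 fell by edgeR, where 1.34% of all genes did, and Isg15 had a log2 of -1.74.

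Genes that load and present peptides on MHC class I had a median log2 of -0.51 (-0.31 without chronic library c), with 8 of 18 lower without overlap against 12.1% of all genes, among them H2-K1 (2215, 2409.7 and 1575 CPM in chronic, 3218 and 2892 CPM in peak libraries) and the peptide transporters Tap1 and Tap2. MHC class II genes had a median of 0.34, which became 0.61 without chronic library a and -0.16 without chronic b, with 2 of 10 higher and 2 lower without overlap (all genes: 13.3% and 12.1%). Cd74, the class II invariant chain, had 21339, 61020.4 and 21497 CPM in chronic and 17177 and 11254 CPM in peak libraries, and H2-Aa overlapped (3345, 9793 and 5630.3 against 4412 and 3913 CPM). Ciita, the class II transactivator, was on the lower side.

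Inflammatory effectors of monocytes had a median log2 of -0.35 over 13 tested genes, and the 4 without overlap, Il1b, Il1a, Nos2 and Saa3, were all lower in chronic disease, where 12.1% of all genes were. Without chronic library a the median was -0.92 and 4 of the 13 fell by edgeR, against 1.34% of all genes. Nos2, the inducible nitric oxide synthase, had 9.41, 2.45 and 1.05 CPM in chronic libraries a, b and c, and 42.3 and 50.7 CPM in peak libraries a and b (log2 -3.25 ± 0.58 SE, adjusted p = 0.154 by edgeR). Saa3, an acute-phase protein made by activated macrophages, had 54.2, 217 and 26.2 CPM in chronic and 716 and 672 CPM in peak libraries. Il1b, the cytokine interleukin-1 beta, had 245, 22.1 and 52.4 CPM in chronic and 393 and 513 CPM in peak libraries. All chronic libraries were below both peak libraries in these 3 genes, with the nearest approach by chronic a for Il1b. Receptors of inflammatory cells lay on the same side: Fpr2, a formyl peptide receptor, had 10.2, 9.46 and 3.14 CPM in chronic and 63.6 and 43.2 CPM in peak libraries, and Jaml, an adhesion molecule of leukocytes, had 13.7, 5.95 and 2.09 against 72.7 and 53.5 CPM. Arg1, arginase 1 of alternatively activated macrophages, overlapped, with 1594, 111 and 7.85 CPM in chronic and 1335 and 693 CPM in peak libraries. Chemokines had a median of 0.90 over 14 tested genes with 2 higher and 1 lower without overlap (all genes: 13.3% and 12.1%). The sign of this median turned without chronic library a, to -0.48, and it was 0.28 without peak a and 1.36 without peak b. The sum of the chemokines was highest in chronic library a, at 9915 CPM, against 2191 to 3977 CPM in chronic b and c and 5471 and 5551 CPM in peak libraries.

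Genes of lipid-laden and disease-associated macrophages were on the higher side. Over 23 tested members the median log2 was 0.96 (1.502 without peak library b), and 8 were higher without overlap, against 13.3% of all genes, and 0 lower, namely Gpnmb, Fabp4, Cd9, Cd63, Ctsb, Ctsd, Igf1 and Cst7, none of them past the edgeR test. By DESeq2, 5 of the 23 rose, where 0.785% of all genes were higher by that test. Gpnmb, a glycoprotein of lysosome-rich macrophages, had 1209, 1543 and 821 CPM in chronic libraries a, b and c, and 407 and 433 CPM in peak libraries a and b. Ctsd and Ctsb, lysosomal proteases, had 3657, 3753 and 5149.7 CPM and 4513, 3406 and 3426 CPM in chronic libraries, against 1822 and 2475 CPM and 2486 and 1972 CPM in peak libraries. Every chronic library exceeded both peak libraries in all 3 genes. Spp1, the secreted glycoprotein osteopontin, overlapped, with 7977, 551 and 2649.7 CPM in chronic and 562 and 795 CPM in peak libraries, and so did Fabp5 (8349, 4945 and 1559 against 1918 and 1154 CPM). The medians of this list were 0.85 in macrophages, with 6 of 23 higher without overlap (11.1% of all genes), and 0.96 in monocytes, with 7 of 20 (12.5% of all genes). Lysosomal genes had a median of 0.50 (0.33 without peak library b) over 21 genes, with 8 higher, against 13.3% of all genes, and 0 lower without overlap, and summed to 37367, 39191 and 27008 CPM in chronic and 28036 and 23134 CPM in peak libraries, which overlapped.

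**Figure D2:**
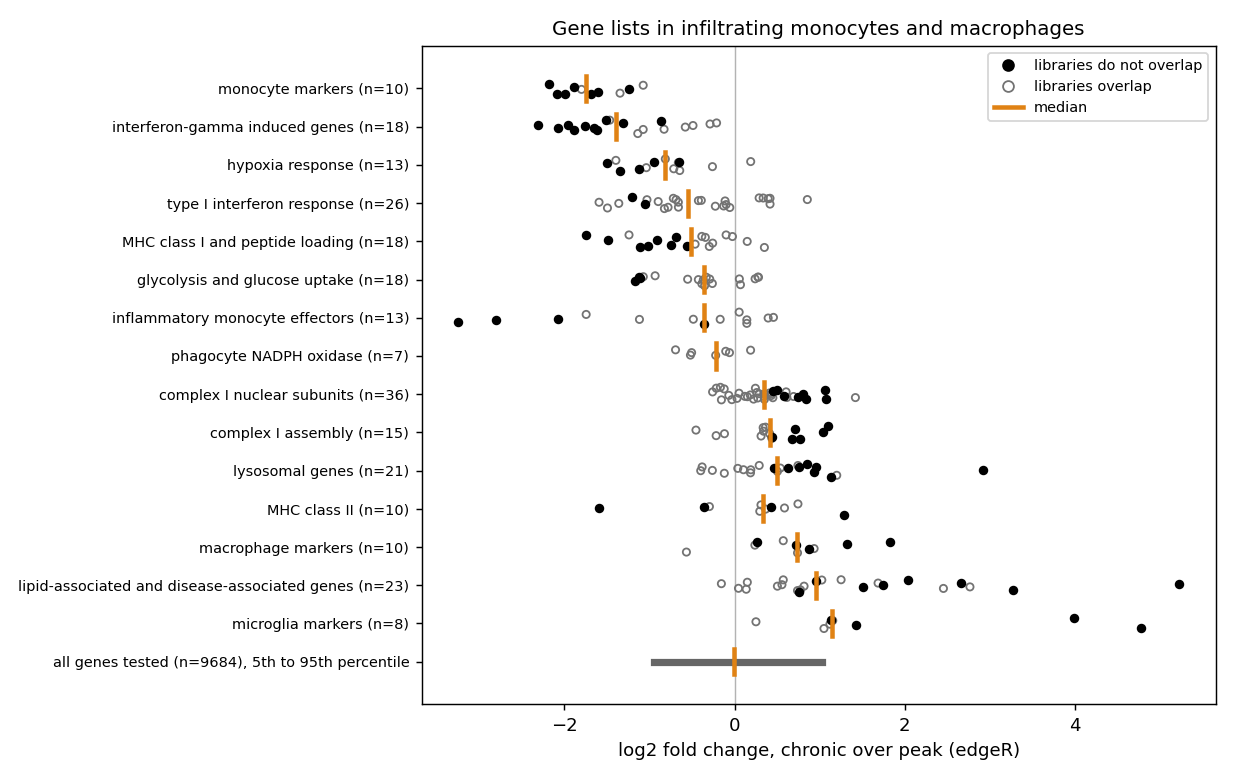
Log2 fold change, chronic over peak, of every tested gene in 15 lists, 1 point per gene, filled where the libraries of the stages do not overlap, with the median of each list as a bar and, at the foot, the 5th to 95th percentile of all 9684 genes (-0.95 to 1.03). Monocyte markers and interferon-gamma induced genes lie to the left, with medians of -1.74 and -1.39, and lipid-associated genes to the right, with a median of 0.96.

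Because reverse electron transport, the process in the series' title, runs through complex I, the respiratory chain and the enzymes that make or remove reactive oxygen were examined next. Subunits of complex I encoded in the nucleus had a median log2 of 0.35 over 36 tested genes, with 8 higher, against 13.3% of all genes, and 0 lower without overlap, and their sum overlapped, with 8769, 8180 and 5561 CPM in chronic libraries a, b and c and 6904 and 5187 CPM in peak libraries a and b. Ndufa1, a small membrane subunit, had 496, 485 and 259.7 CPM in chronic and 233 and 163 CPM in peak libraries (log2 1.06). Ndufs4, a subunit of the matrix arm, had 123, 91.1 and 74.3 CPM in chronic and 113 and 111 CPM in peak libraries and overlapped. For the factors that assemble complex I the median was 0.41, with 6 of 15 higher without overlap, against 13.3% of all genes, all of the Ndufaf family. The medians of complexes II, III, IV and V were 0.01, 0.39, 0.30 and 0.33. These medians rested on single libraries. For the nuclear subunits of complex I the median was 0.19 without chronic library a, 0.17 without chronic b, 0.69 without peak a and 0.03 without peak b, and for the assembly factors 0.69 without peak a and 0.19 without peak b. For complexes III, IV and V it was 0.82, 0.69 and 0.68 without peak a, 0.09, 0.14 and 0.16 without peak b, and 0.26, 0.13 and 0.23 without chronic a. Without chronic c it was 0.47 for complex IV and 0.51 for complex V. The subunits encoded in mitochondrial DNA were not analysed here.

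The phagocyte NADPH oxidase, the other large source of superoxide in these cells, had a median log2 of -0.22 over 7 genes (-0.39 without chronic library b, -0.38 without chronic c), and the stages overlapped in all of them. Cybb, its catalytic subunit, had 474, 940.2 and 923 CPM in chronic libraries a, b and c, and 699 and 1118 CPM in peak libraries a and b. Cyba, the partner subunit, had 4630.2, 4641 and 3033 CPM in chronic and 4525 and 2672 CPM in peak libraries. The antioxidant list had a median of 0.00, with 4 of 23 higher and 4 lower without overlap, near the 13.3% and 12.1% of all genes. Members of the peroxiredoxin family, which reduce peroxides, lay on both sides: Prdx1 had 2498, 2752 and 1468 CPM in chronic and 1038 and 709.9 CPM in peak libraries, and Prdx5 had 2644, 1728 and 874 CPM in chronic and 4189 and 2756 CPM in peak libraries. Txn1, thioredoxin, had 566, 516 and 503 CPM in chronic and 886 and 1006 CPM in peak libraries. Genes of the hypoxia response had a median of -0.81 (-0.41 without peak library a), with 5 of 13 lower without overlap against 12.1% of all genes, among them Egln1, an oxygen-sensing hydroxylase (75.3, 77.4 and 61.3 against 135 and 90.1 CPM). Glycolysis had a median of -0.36, with 3 of 18 lower without overlap, near the 12.1% of all genes. That median was -0.68 without chronic library a, -0.16 without chronic c, -0.10 without peak a and -0.77 without peak b.

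Each class was then compared alone, to see the stage difference apart from the mix of classes as Ccr2 divides them. In monocytes, 5 of 7699 genes (0.0649%) were called, and 24.5% did not overlap. Bhlhe41 rose, to 47.7, 139.7 and 129.8 CPM in libraries a, b and c of chronic disease, against 1.49 and 3.22 CPM in peak libraries a and b (log2 5.66 ± 0.63 SE, adjusted p = 0.00755 by edgeR). Cd63 rose to 475, 919 and 647 CPM in chronic monocytes, against 59.8 and 78.3 CPM in peak monocytes (log2 3.30 ± 0.45 SE, adjusted p = 0.0222 by edgeR). Fcrls rose to 28.6, 36.0 and 40.9 CPM, against 1.93 and 2.76 CPM at the peak (log2 3.95 ± 0.50 SE, adjusted p = 0.0136 by edgeR). Chronic monocytes numbered only 136, 54 and 43 in libraries a, b and c. After thinning, a Fcrls UMI was left in 6 of 136, 2 of 53 and 3 of 40 of them, against 4 of 993 and 1 of 171 peak monocytes. For Bhlhe41, Cd63 and Fcrls the CPM of the lowest chronic library was many times above that of the higher peak library. Fpr2 fell to 11.1, 10.6 and 12.02 CPM in chronic monocytes, against 70.4 and 59.4 CPM in peak monocytes (log2 -2.53 ± 0.38 SE, adjusted p = 0.0393 by edgeR). Jaml fell to 17.5, 12.7 and 4.81 CPM, against 99.8 and 80.6 CPM (log2 -2.81 ± 0.43 SE, adjusted p = 0.0393 by edgeR). Next by the naming rule and not called were Saa3 (35.0, 46.6 and 2.4 against 337 and 351 CPM) and Timp2 (127, 491 and 276 against 26.4 and 35.9 CPM). None of the 5 was called without peak library a, and 0 genes were called when all sums were thinned to the smallest one, which held 460353 UMIs. With cells that held a microglial UMI left out, a filter that itself uses Fcrls, Bhlhe41 alone was called (log2 5.39, adjusted p = 0.00838 by edgeR).

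In macrophages, 0 of 9076 genes were called by edgeR, 674 (7.43%) had an unadjusted p under 0.05 and DESeq2 called 29, while 21.9% did not overlap. The smallest adjusted p, 0.0973 by edgeR, was shared by Bhlhe41 and C4b. Bhlhe41 had 166, 245 and 163 CPM in chronic macrophages of libraries a, b and c, and 20.8 and 28.1 CPM in peak macrophages of libraries a and b (log2 2.98 ± 0.40 SE). C4b had 11.8, 11.2 and 6.76 CPM in chronic and 53.0 and 98.1 CPM in peak macrophages (log2 -2.88 ± 0.39 SE). Neither gene overlapped between the stages. Cd63 had 1656, 1585 and 1603 CPM in chronic and 528 and 298 CPM in peak macrophages, Timp2 had 384, 568 and 447 against 111 and 148 CPM, and Gpr141 had 33.02, 34.5 and 29.1 against 128 and 118 CPM. In both classes, Bhlhe41, Cd63 and Timp2 were above and Gpr141 below the peak range in every chronic library (Gpr141 in monocytes: 90.7, 44.5 and 84.1 against 266 and 291 CPM). The naming rule required this in each class, and both classes came from the same libraries, so it is no separate support. Gbp3, which the rule named on the summed classes and whose single values are uncertain, had 55.8, 23.3 and 29.1 against 98.3 and 95.6 CPM in macrophages. In monocytes Gbp3 had 82.7, 25.4 and 19.2 against 168 and 163 CPM.

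**Figure D3:**
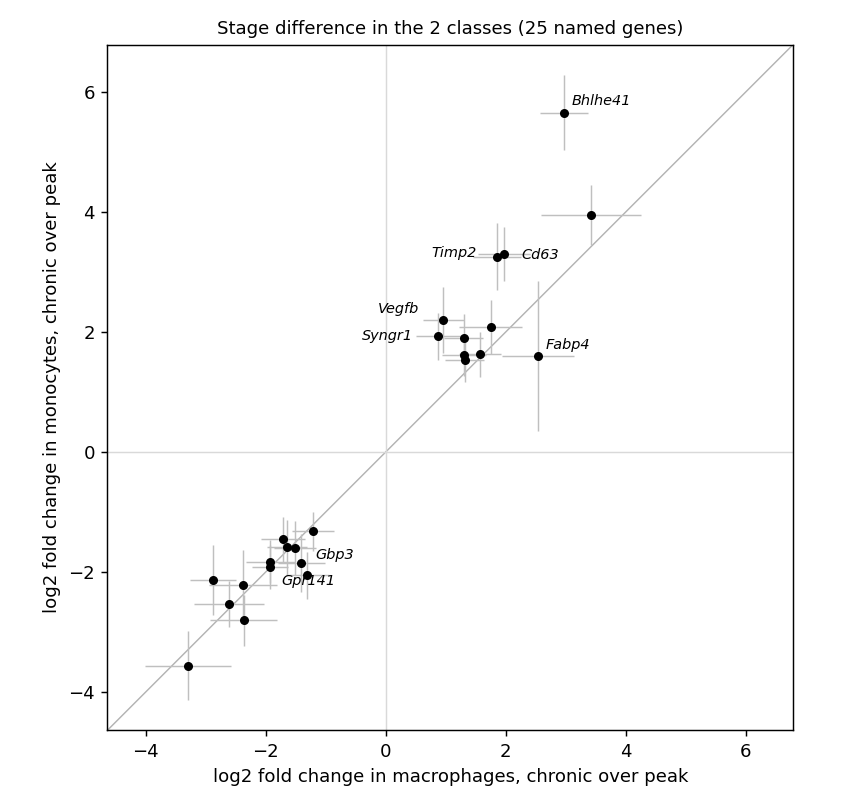
Log2 fold change, chronic over peak, in macrophages (x axis) and in monocytes (y axis) of 25 genes picked by the naming rule, without Ccr2, by which the classes were divided, with SE bars and the line of equal values. Bhlhe41 lies above the line, at 2.98 in macrophages and 5.66 in monocytes, and Gpr141 close to it, at -1.93 and -1.91.

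Whether the stage difference itself differed between the classes was tested by pairing the macrophage and monocyte sums of a library. Of 9206 genes, 2 were called (0.0217%). The stage difference of Bhlhe41 was smaller in macrophages than in monocytes, by a log2 of -2.57 ± 0.42 (SE; adjusted p = 0.0273 by edgeR). After thinning, 26.2%, 39.5% and 36.9% of chronic and 4.41% and 8.09% of peak macrophages held a Bhlhe41 UMI, against 5.88%, 24.5% and 15.0% of chronic and 0.705% and 0% of peak monocytes, the last being 0 of 171 cells, which allows up to 1.75%. Macrophages thus had the higher shares at both stages, and the relative difference was larger in monocytes. Cav1, caveolin-1 of membrane caveolae, differed by -5.31 ± 0.88 (SE; adjusted p = 0.0273 by edgeR). It had 0.273, 4.66 and 2.72 CPM in chronic and 4.11 and 4.88 CPM in peak macrophages, and 0.804, 8.42 and 54.2 CPM in chronic and 0.609 and 0.870 CPM in peak monocytes. Cav1 rested on the monocytes of chronic library c, without which its log2 was -3.57 and its adjusted p 0.988 by edgeR. It was also not called without peak library a (adjusted p = 0.319 by edgeR), without cells with a microglial UMI (0.421) or by DESeq2 (0.0556). The difference in Bhlhe41 was not called without chronic library b (adjusted p = 0.0725 by edgeR), without chronic c (0.0861), without peak a (0.453), without cells with a microglial UMI (0.421), with a stricter filter on low counts (0.143) or with thinned sums (1.00).

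The resident microglia of the same stages were set beside the infiltrating cells to see where the stage differences part. Of 11024 genes, 1 was called for a difference between the cell types (0.00907%). Myof, myoferlin, a protein of membrane repair and fusion, had 165.6, 178 and 106 CPM in chronic and 119 and 181 CPM in peak infiltrating cells, which overlapped. In microglia it had 11.9, 16.3 and 11.9 CPM in chronic and 0.371 and 0.435 CPM in peak libraries, the peak values resting on 2 and 3 UMIs. The stage difference in infiltrating cells minus that in microglia was -4.98 ± 0.58 (log2, SE; adjusted p = 0.018 by edgeR). It was not called without either of the peak microglia libraries (adjusted p = 0.205 and 0.536), without the infiltrating library peak b (0.0612) without the microglia library chronic b (0.0563) or with thinned sums (0.201). For the genes named above the difference between the cell types was not called. On simulated counts this comparison recovered 0% of 2-fold and 11% of 4-fold changes, so a missing call does not show that the cell types share a stage difference. In a fit shared by both cell types, Bhlhe41 had log2 fold changes of 3.76 in infiltrating cells and 1.31 in microglia, Cd63 2.63 and 0.91, Timp2 2.45 and 1.85, Fabp4 3.21 and 7.04, and Iigp1 -2.34 and -3.20. Gpr141 was a gene of the infiltrating cells at this depth, with 1 UMI in all microglia libraries together against 78 to 237 UMIs in chronic and 916 to 4116 UMIs in peak libraries of infiltrating cells.

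**Figure D4:**
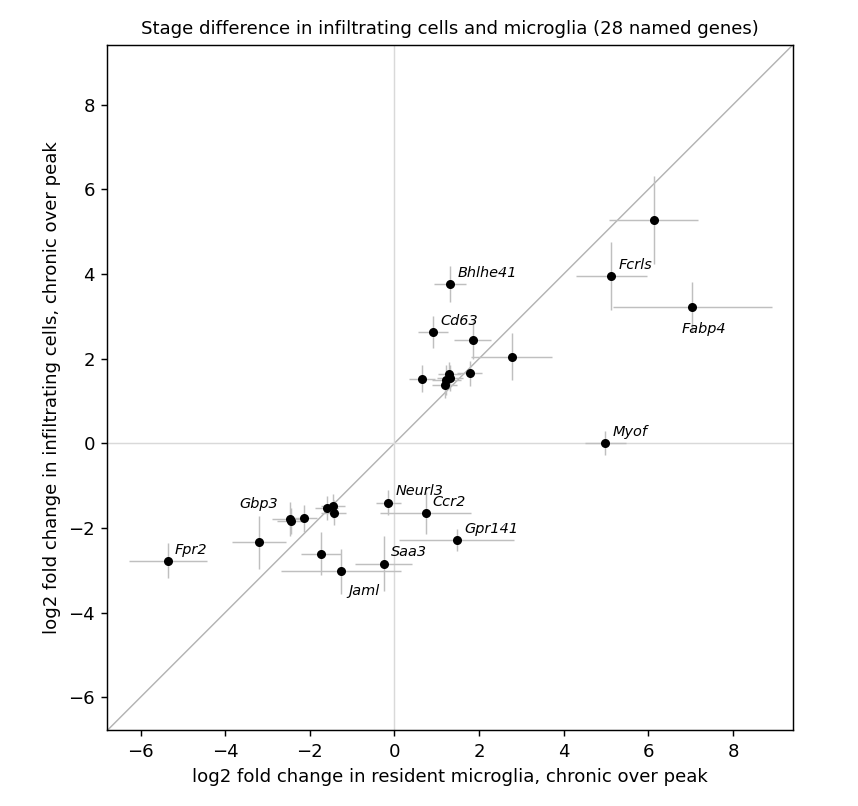
Log2 fold change, chronic over peak, in resident microglia (x axis) and in infiltrating monocytes and macrophages (y axis) of 28 genes picked by the naming rule, with SE bars and the line of equal values. Myof lies far off the line, at 4.98 in microglia and 0.00 in infiltrating cells, and Gbp3 near it, at -2.48 and -1.79.

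The chronic libraries also differed among themselves. The median absolute log2 ratio between libraries, over 3574 well-measured genes, was 0.262 between chronic a and b, 0.476 between chronic a and c and 0.387 between chronic b and c, against 0.465 between the peak libraries. Between the stages it ran from 0.326 (chronic a and peak a) to 0.602 (chronic a and peak b), a range that overlapped that within the stages. Chronic a and b, the closest pair, were also the only libraries of these to share a pool and a batch date. Ccl6, a chemokine of myeloid cells, spanned 4479, 591 and 198 CPM over libraries a, b and c of chronic disease, against 956 and 471 CPM in peak libraries a and b. Spp1, Arg1, Isg15 and Plac8 were likewise highest, among the chronic libraries, in a, and Apoe and Fcrls in c.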

How the data were processed

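Droplet single-cell RNA sequencing measured the cells of 13 libraries, of which the 5 infiltrating ones carry the members and the resident ones served for 1 comparison. Counts came as the matrix that the authors deposited, with 1 UMI number per gene and cell, not normalized, over 22598 features. The tools were Cell Ranger 3.1.0 with R 4.1.3 and the builds GRCm38 and mm10, per the submitters' processing notes. Which annotation they used is not given in the sources. The deposited cell table gives class, cluster, gate, pool, batch date and doublet status, the mitochondrial percent and the log10 of total UMIs. No cell in it was marked a doublet, the mitochondrial percent reached 5.00, and 0 mitochondrially encoded features were in the matrix. A dense text copy of the counts was not used here.

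UMIs were summed per gene over the members of a library, for both classes together and for each alone, since cells are not replicates. Differences between libraries were tested in R 4.3.3 with edgeR 4.0.16 (filterByExpr, TMM, quasi-likelihood F test, two-sided). Benjamini-Hochberg adjustment ran over all genes tested, and an adjusted p under 0.05 was a call. The fit of both classes had 3 residual degrees of freedom and a biological coefficient of variation of 33.2%. Within the members the deposited class names divided at 2 UMIs of Ccr2 without exception. The class comparison took library as a block, and the comparison with microglia used 10 sums in 1 fit. Sums over lists and marker levels used CPM by library size. DESeq2 1.42.0, other scalings and filters, thinned sums, left-out libraries and cell filters were alternatives. Libraries of a stage do not overlap for a gene when all chronic values lie on one side of all peak values.

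On counts simulated from these libraries, the fit of both classes recovered 7% of 100 2-fold and 64% of 100 4-fold changes. Changes were placed only in genes above a minimum mean count. Among the unchanged genes this fit made 10 false calls, so single calls are to be read with caution. False calls were 8 in macrophages, 7 in monocytes and 11 in the class comparison. Single genes were named by smallest p, given no overlap, a log2 fold change of 1 or more in size and a mean log2 CPM of 5 or more, 10 each way for both classes and 5 each way for a class, with up to 4 members of each list by level and a fixed set of known genes. Uncalled genes filled free places, and some genes the rule takes are not reported here. Members of lists outside this rule were named where their libraries did not overlap, after the values were seen. The members and gene lists were chosen with earlier results of these data known. Promoters came from RefSeq and gene positions from a GENCODE annotation of GRCm38.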

Additional observations from a re-analysis of the deposited data

Results flagged for a closer look

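The stage difference, chronic over peak, was smaller in macrophages than in monocytes for Bhlhe41, by -2.57 on the log2 scale, and stood out because a test of the difference between the classes itself was passed. The classes divide at 2 UMIs of Ccr2. In edgeR's quasi-likelihood test the adjusted p was 0.0273, and the separate fits gave 2.98 in macrophages and 5.66 in monocytes.

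Cav1 passed the same test between the classes with -5.31. The monocytes of chronic library c held 23 of its UMIs.

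Myof differed between infiltrating cells and resident microglia in its stage difference, by -4.98 on the log2 scale, in a test of the difference between the cell types. Infiltrating cells overlapped between the stages, and the microglia of peak libraries held 2 and 3 UMIs of Myof.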

How the results depend on the processing

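For both classes together, 1 gene was called, against 0 with scaling by library size, 103 with DESeq2, 288 with no filter on low counts, 0 with a stricter filter, 12 in a fit shared with microglia, 0 without the condition on cluster and 0 to 201 with 1 library left out (201 without chronic a, 4 without chronic b, 2 without chronic c). For macrophages 0 became 29 with DESeq2, 173 with no filter and 0 to 117 with a library left out (4 without chronic c). For monocytes 5 became 40 with DESeq2, 151 with no filter, 0 with thinned sums, 1 without cells with a microglial UMI and 0 to 112 with a library left out (112 without chronic a, 15 without chronic c). For the class difference 2 became 1 with DESeq2, 28 with no filter, 0 each with a stricter filter, thinned sums and no cells with a microglial UMI, and 0 to 9 with a library left out (6 without peak a, 8 without peak b). For the difference from microglia 1 became 3 with RLE scaling, 2 with library size, 20 with DESeq2, 68 with no filter, 2 with a stricter filter, 0 with thinned sums, 2 without cells with a microglial UMI, 3 with cells of at least 2000 UMIs and 0 to 7 with a library left out. The cause was not tested.

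Scaling by library size shifted the median log2 of all genes to -0.16. The macrophage share differed by 27.2 to 37.8 points with a library left out and by 29.0 without cells with a microglial UMI. Signs turned for Apoe (-0.26 without chronic c), Cybb (0.0199 without chronic a, 0.14 without peak b), Cyba (-0.16 without peak b), Ccl6 (-0.87 without chronic a) and Isg15 (-1.74 without chronic a). No paired analysis was possible because, between the stages, the cell table carries no replicate number of the labels for a library, the letters a, b and c are names only, and no pool holds both stages. The class comparison has the library as a block already.

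The number of peak libraries (2), 3 residual degrees of freedom and pools and batch dates that never hold both stages limit every statement. The smallest sum, 460353 UMIs for chronic c monocytes, limits low genes most.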

Other observations

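Other gene groups of the infiltrating cells showed smaller or split differences, and of their members only Bhlhe41, a transcription factor described above, passed the edgeR test. The shares of all genes without overlap, to be read beside each count, were 13.3% higher and 12.1% lower. All Fc gamma receptor genes together had a median log2 of -0.57 (-1.02 without chronic library a, -0.93 without peak b), with 2 of 5 lower without overlap: Fcgr3 had 474, 332 and 318 CPM in chronic libraries a, b and c, and 892 and 534 CPM in peak libraries a and b, and Fcgr2b had 453, 342 and 316 against 601 and 501 CPM. Adhesion and migration genes had a median of -0.68 (-0.36 without peak library b) and 3 of 13 lower without overlap, among them Itgam, the CD11b integrin chain (209.6, 124 and 143 against 221 and 290.4 CPM). Of cholesterol genes 3 of 22 were higher and 3 lower: Abcg1, which exports cholesterol, had 187, 215 and 111 CPM in chronic and 69.0 and 102 CPM in peak libraries, while the lower ones included the synthesis genes Hmgcs1 and Sqle. Among nucleotide receptors and ectoenzymes, 3 of 10 were higher and 2 lower. Cd38, which consumes NAD, had 109, 63.1 and 56.5 CPM in chronic and 201 and 136 CPM in peak libraries.

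Transcription factors of monocytes and macrophages had a median log2 of -0.26, with 3 of 27 higher, Bhlhe41 among them, and 8 lower without overlap. The median was -0.39 without chronic library a or c and 0.06 without peak b. Genes induced early or by dissociation had a median of -0.30 (-0.46 without peak library a, 0.14 without peak b), with 1 of 20 higher and 4 lower, and Jun had 176, 109 and 232 CPM in chronic and 321 and 532 CPM in peak libraries. Proliferation genes had a median of 0.50 (0.24 without chronic library c), with 4 of 13 higher and 1 lower, the lower one being Hmgb2, a chromatin protein (70.8, 78.5 and 84.3 against 181 and 158 CPM). Border-associated macrophage markers were split, with F13a1 lower (134, 103 and 58.1 against 246 and 212 CPM) and Mrc1 higher (14.3, 8.76 and 25.1 against 5.25 and 8.42 CPM).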
